A study of Arabidopsis thaliana with 6 samples.

Results

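Of the 36 genes examined here, which encode arabinogalactan proteins of Arabidopsis thaliana, 22 belong to the AGP series and 14 to the fasciclin-like series (FLA). They were taken from the 37051 genes of the count table by their locus identifiers, as named members of the gene family. By class, 9 genes code for classical AGPs, 3 for lysine-rich AGPs, 10 for arabinogalactan (AG) peptides, and 6, 4 and 4 for FLA groups A, B and C. The annotation of the reference gives each of the 36 an AGP or FLA name, in keeping with the family. The members were chosen by family name with the Col-0 and los2-5 fold changes of this comparison already known, and how far those values shaped the list was not recorded. Counts over the list are therefore a description of these libraries and not a test of the family.

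The samples were whole shoots of 2-week-old plants of the wild type Col-0 and of the mutant los2-5, with 3 libraries per genotype. The mutant's name points to LOS2, the gene of the glycolytic enzyme enolase. All plants grew on soil at 22 °C and 60% humidity, after 2 days at 4 °C and with the light constantly on (100 µmol m-2 s-1), so both genotypes share the cold period and the lack of a dark phase. Each library came from a pool of 3 plants, which averages over plants, and the replicates of a genotype came from different pots. No source used here describes the lesion of los2-5 or says how many lines carry it.

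Arabinogalactan proteins are secreted glycoproteins of the plasma membrane and the cell wall. Their short protein backbones are rich in proline, alanine, serine and threonine. Prolines are hydroxylated and carry large branched arabinogalactan chains, and many members are fixed to the plasma membrane by a glycosylphosphatidylinositol (GPI) anchor. The FLA proteins add fasciclin domains, which in animals take part in cell adhesion. In shoots the family is known mainly from growing tissue, cell expansion and wall formation, and single members from fibre and vessel walls.

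Library totals ran from 3563033 to 4598645 counts, with 18997 to 19762 genes detected. Levels are CPM, counts per 1000000 counts of a library, with library sizes adjusted by TMM, a method that sets the bulk of genes to no change. In 3' RNA-seq each transcript gives a tag near its end, so levels are not divided by gene length. They are compared between genotypes within a gene, or as a sum over the same genes. Calls required an adjusted p no greater than 0.05 in the edgeR quasi-likelihood test over all 13952 genes that passed the filter on low counts. The shoot markers RBCS1A, CAB1, CA1 and RCA were high in every library, with sums of 18619 to 20463 CPM in Col-0 and 11981 to 13257 CPM in los2-5. Where 10.6% of all genes tested were called lower, 3 of these 4 markers were. Their part in the family's change was not tested. The 6 flower markers summed to at most 4.43 CPM in a library, the 3 pollen markers had 0 counts but for 2 of VGD1 in los2-5 replicate 1, and the 3 seed markers had 0 counts but for 1 of CRA1. Of the 5 root markers PYK10 was at 46.7 to 67.9 CPM, CASP1 had 3 to 6 counts per library, and the other 3 had at most 1. LOS2 itself was at 110.4, 124 and 106 CPM in Col-0 and 120.2, 115 and 123 CPM in los2-5 and was not called, a reading that checks nothing where the tag lies outside the lesion.

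Most arabinogalactan protein genes were lower in los2-5. Of the 36 genes 30 were tested, 21 fell, 2 rose and 7 were not called. Among all genes tested 10.6% were called lower, 9.92% higher and 20.5% in either direction. The median log2 fold change of the 30 was -0.73, against 0.02 over all 13952 genes, and 28 of them had a value below 0 (27 under scaling by library size alone, where FLA18 turned to 0.015). The genotypes did not overlap for 25 of the 30, where 37.2% of all genes tested did not overlap. The adjusted p of the 23 called members ran from 5.9e-07 to 0.020 (edgeR), and 15 of the 23 were called under each of 12 alternatives.

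Added up per library, the 36 genes took 6524, 5939.9 and 5511 CPM in Col-0 replicates 1 to 3 and 3976, 2776 and 3138 CPM in los2-5. The lowest Col-0 sum lay above the highest los2-5 sum, and the mean of 5992 ± 509 CPM (SD, n = 3) in Col-0 stood beside 3297 ± 615 CPM in los2-5, 55.0% of the Col-0 level. The AGP series was at 54.6% and the FLA series at 55.8%. Among the classes the AG peptides kept 51.0%, FLA group A 52.9%, lysine-rich AGPs 55.4%, FLA group C 56.5%, FLA group B 72.5% and classical AGPs 72.9%. Such sums mainly follow the genes with the most counts. In Col-0 AGP15, AGP21 and AGP12 had means of 1525, 1081 and 402 CPM within the AG peptide sum of 3164 CPM. FLA13 had 874 of 1138 CPM in FLA group A, and AGP9 364 of 619 CPM in the classical class. In bulk shoots, fewer cells of a type and less RNA per cell cannot be told apart. Among the 21 genes that fell, los2-5 replicate 1 had the highest of the los2-5 levels for 14, and Col-0 replicate 1 the highest of the Col-0 levels for 13.

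**Figure D1:**
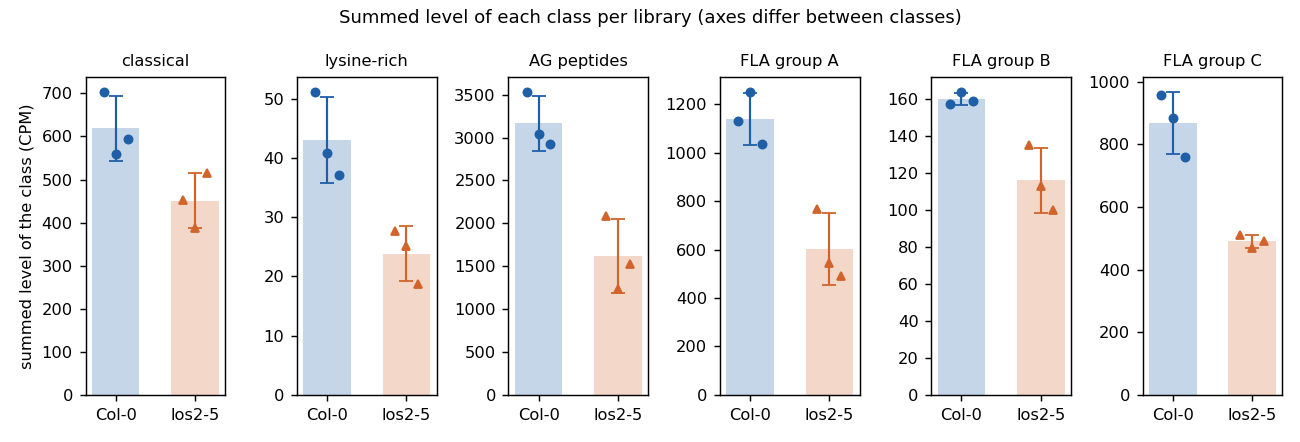
Summed level of each class in CPM (vertical axes, from 0, differing between classes) for Col-0 (circles) and los2-5 (triangles), with bars for the mean and error bars for the SD of 3 libraries. In each of the 6 classes every los2-5 sum lies below every Col-0 sum, with mean sums of AG peptides of 3164 ± 320.4 (Col-0) and 1614 ± 431 CPM (los2-5).

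Classical AGPs, in which a single proline-rich stretch makes up most of the mature protein, were the class that moved in both directions. Of 9 genes 8 were tested, with 2 that rose, 2 that fell and 4 without a call, and with a median log2 fold change of -0.46. AGP5 (AT1G35230) was at 21.8, 18.4 and 12.4 CPM in Col-0 replicates 1 to 3 and at 53.5, 44.7 and 79.7 CPM in los2-5 replicates 1 to 3. Every los2-5 library lay well above the highest Col-0 library, and the log2 fold change was 1.77 ± 0.23. AGP2 (AT2G22470) was at 1.48, 2.46 and 4.97 CPM in Col-0 and 8.85, 9.88 and 11.3 CPM in los2-5, with 1.69 ± 0.31 as its log2 fold change. Its Col-0 libraries spread more widely, with replicate 3 the highest, and without that replicate the log2 fold change was 2.29. AGP5 and AGP2 were the 2 members called higher, by 3.41-fold and 3.22-fold, and both were called under each of the 12 alternatives. With 5, 10 and 22 counts in Col-0, AGP2 passed the filter on low counts only through its los2-5 libraries.

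AGP4 (AT5G10430), known as JAGGER for its part in keeping additional pollen tubes out of the ovule, was at 72.6, 55.5 and 54.04 CPM in Col-0 and 29.1, 29.01 and 37.1 CPM in los2-5. It fell with a log2 fold change of -0.93 ± 0.16, and the groups did not overlap. AGP9 (AT2G14890) went from 409, 324 and 360.2 CPM in Col-0 to 221, 198 and 235 CPM in los2-5, again with no overlap and with a log2 fold change of -0.74 ± 0.12. The 4 classical genes not called had log2 fold changes of -0.52 ± 0.20 for AGP1 (AT5G64310), -0.47 ± 0.18 for AGP7 (AT5G65390), -0.45 ± 0.23 for AGP10 (AT4G09030) and -0.27 ± 0.16 for AGP26 (AT2G47930). For AGP7 the groups did not overlap, at 77.3, 61.4 and 61.5 CPM in Col-0 against 51.6, 32.9 and 59.3 CPM in los2-5. Without los2-5 replicate 1 AGP1 and AGP10 were called lower (adjusted p = 0.0081 and 0.019, edgeR), and without los2-5 replicate 3 AGP7 was (adjusted p = 0.017, edgeR). With no filter on low counts AGP1 and AGP7 were also called lower (adjusted p = 0.037 and 0.013, edgeR). AGP3 (AT4G40090) was not tested, with 5 counts in Col-0 and 2 in los2-5.

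Lysine-rich AGPs carry a short basic stretch within the proline-rich backbone and are GPI-anchored. Both tested members of the 3 fell. AGP18 (AT4G37450), which is needed for the female germ line to develop, was at 38.1, 26.05 and 27.6 CPM in Col-0 and 19.9, 18.5 and 12.4 CPM in los2-5 (log2 fold change -0.84 ± 0.20). AGP17 (AT2G23130), known from the rat1 mutant that resists transformation of its roots by Agrobacterium, was at 10.9, 13.3 and 7.46 CPM in Col-0 and 6.69, 4.73 and 5.21 CPM in los2-5 (-0.92 ± 0.26). Neither gene had a los2-5 library as high as its lowest Col-0 library. For AGP17 the gap was small, and its adjusted p was 0.10 on leaving out Col-0 replicate 2 and 0.058 on leaving out los2-5 replicate 2 (edgeR). AGP19 (AT1G68725), whose loss is known to slow growth, had 22 counts in Col-0 and 19 in los2-5 and did not pass the filter.

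**Figure D2:**
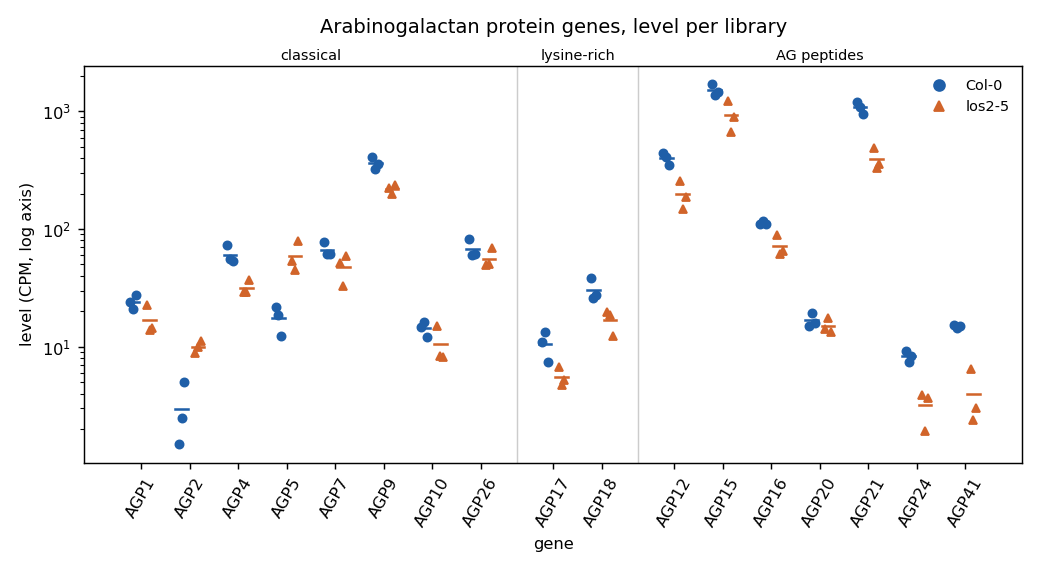
Level of the 17 tested AGP genes in each library, in CPM on a log axis, with circles for Col-0, triangles for los2-5 and a short line at the mean of 3 libraries. The AGP2 and AGP5 triangles stand above the circles, and in the lysine-rich and AG peptide classes AGP20 alone shows triangles among the circles.

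AG peptides are the shortest members, with coding lengths of 177 to 225 bases against 384 to 576 for the classical genes. The mature peptide is short enough to hold little more than its glycosylated residues and the site of the GPI anchor. Of 10 genes 7 were tested, 6 fell, 0 rose and 1 had no call, and the median of -1.01 was the lowest of the 6 classes. At an unadjusted p under 0.05 edgeR had 0 AG peptide genes higher, and DESeq2 and limma-voom also called 0 higher.

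AGP21 (AT1G55330), a peptide gene linked to root hair patterning, was at 1211, 1084 and 947 CPM in Col-0 and 493, 331 and 355 CPM in los2-5. The highest los2-5 library lay far below the lowest Col-0 library, and the log2 fold change was -1.46 ± 0.14. AGP41 (AT5G24105) had the lowest log2 fold change of the 30 tested members at -1.91 ± 0.27, with 15.3, 14.5 and 14.9 CPM in Col-0 and 6.48, 2.36 and 3.04 CPM in los2-5. Its Col-0 libraries lay close together and its los2-5 libraries did not, with replicate 1 the highest. AGP24 (AT5G40730) went from 9.15, 7.37 and 8.37 CPM to 3.89, 1.93 and 3.69 CPM (-1.38 ± 0.29). AGP12 (AT3G13520) was at 441, 411 and 352 CPM in Col-0 and 258, 149 and 189 CPM in los2-5 (-1.01 ± 0.16), again with los2-5 replicate 1 nearest to the wild type.

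AGP15 (AT5G11740) was at 1721, 1383 and 1470.3 CPM in Col-0 and 1216, 671 and 890.1 CPM in los2-5 (-0.72 ± 0.18). AGP16 (AT2G46330) was at 109.8, 118 and 110.4 CPM and 89.8, 61.4 and 65.6 CPM (-0.64 ± 0.14). Neither gene showed overlap between the groups, but los2-5 replicate 1 of AGP15 came within reach of the lowest Col-0 library, and its adjusted p was 0.0502 on leaving out Col-0 replicate 1 and 0.069 on leaving out los2-5 replicate 3 (edgeR). AGP20 (AT3G61640) was not called, with 13.2 to 19.4 CPM over the 6 libraries and a log2 fold change of -0.17 ± 0.19. Of the untested genes AGP22 (AT5G53250) had 15, 9 and 6 counts in Col-0 and 4, 0 and 5 in los2-5. Scaled by library totals without TMM, the ratio was 3.58 in favour of Col-0, with an exact 95% interval of 1.66 to 8.58 for counting error alone. With no filter on low counts AGP22 was called lower (adjusted p = 0.0058, edgeR). AGP14 (AT5G56540), known from root hair elongation, had 17 counts in Col-0 and 15 in los2-5, and AGP13 (AT4G26320) had 3 and 0.

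FLA genes fell with no called exception. Of the 14 genes 13 were tested, 11 fell, 0 rose and 2 were not called, with a median log2 fold change of -0.82. In edgeR 0 had a higher value at an unadjusted p under 0.05, and DESeq2 and limma-voom called 0 higher. The number called lower was 7 without Col-0 replicate 1 and 8 without Col-0 replicate 3, los2-5 replicate 2 or los2-5 replicate 3.

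FLA group A proteins hold 1 fasciclin domain, and each gene is a single coding exon of 741 to 765 bases. All 5 tested members of the 6 fell. FLA7 (AT2G04780) was at 129, 136 and 123 CPM in Col-0 and 68.6, 48.8 and 43.9 CPM in los2-5. The los2-5 libraries lay far below the wild type, with a log2 fold change of -1.26 ± 0.15. FLA13 (AT5G44130) went from 851, 969 and 800.5 CPM to 601, 428 and 389 CPM (-0.89 ± 0.14). FLA9 (AT1G03870) went from 123, 125 and 88.2 CPM to 85.1, 55.9 and 46.5 CPM (-0.84 ± 0.20), where los2-5 replicate 1 nearly met Col-0 replicate 3. Its adjusted p was 0.057 on leaving out Col-0 replicate 1 and 0.060 on leaving out los2-5 replicate 2 (edgeR).

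FLA11 (AT5G03170) and FLA12 (AT5G60490) are known from the secondary walls of stem fibres and vessels, where their loss lowers tensile strength. FLA11 was at 17.4, 14.01 and 18.1 CPM in Col-0 and 10.6, 10.3 and 10.9 CPM in los2-5 (-0.64 ± 0.19). FLA12 was at 9.15, 6.39 and 6.11 CPM in Col-0 and 4.10, 3.44 and 1.30 CPM in los2-5 (-1.26 ± 0.33). Both had separate groups at low levels, and both calls were sensitive to single libraries. The adjusted p of FLA11 was 0.058 on leaving out Col-0 replicate 1, 0.11 on leaving out Col-0 replicate 3, 0.053 on leaving out los2-5 replicate 2, 0.055 with library size alone and 0.069 in DESeq2. For FLA12 it was 0.056 on leaving out Col-0 replicate 1 and 0.053 on leaving out los2-5 replicate 3 (edgeR). FLA11 also overlaps AT5G03160 on the opposite strand, a gene with 7834 counts against 343 for FLA11, and no source used here states the strand setting of the counting. Of 13 secondary wall markers 3 were tested and CESA4 alone was called lower (-0.95 ± 0.33), where 10.6% of all genes tested were. The call of CESA4 was absent under 7 of the 12 alternatives. Its genotypes overlapped, with 5.37 CPM in los2-5 replicate 2 and 5.20 CPM in Col-0 replicate 3. CESA4 also overlaps AT5G44020 on the same strand. The laccase gene LAC4 of lignin formation did not pass the filter, with 6, 11 and 15 counts in Col-0 and 2, 4 and 0 in los2-5. It was called lower under each of the 5 alternatives that gave it a value, with adjusted p from 0.00037 to 0.025 (edgeR). Besides the fit with no filter, these were leave-one-out fits that LAC4 entered only through Col-0, where its counts were higher. Being called in all of them is therefore no measure of stability. The untested markers did not all lie lower. FRA8 had 2, 3 and 5 counts in Col-0 and 7, 11 and 8 in los2-5, and with no filter it was not called (adjusted p = 0.19, edgeR). COBL4 had 7 counts in Col-0 and 13 in los2-5 and IRX10 13 and 15, while CESA7 had 29 and 15, LAC17 17 and 7 and IRX9 7 and 2. The summed level of the 13 markers was 24.5, 28.01 and 24.6 CPM in Col-0 and 15.1, 19.98 and 15.8 CPM in los2-5, with the fibre regulator SND1 at 0 counts in each library and NST1 at 1 count in all. Their part in the change of FLA11 and FLA12 was not tested. FLA6 (AT2G20520) had 0 counts in every library.

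**Figure D3:**
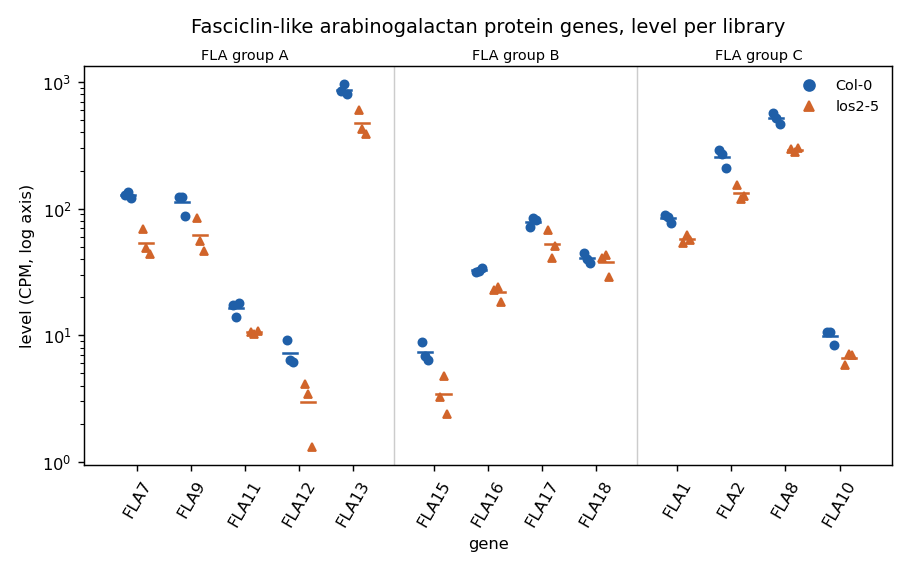
Level of the 13 tested FLA genes in each library, in CPM on a log axis, with circles for Col-0, triangles for los2-5 and a short line at the mean of 3 libraries. Triangles lie below circles for each gene but FLA18, whose libraries mix at 28.9 to 44.9 CPM.

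FLA group B proteins have a pair of fasciclin domains and, unlike the other groups, no GPI anchor signal. Of 4 genes tested 3 fell. FLA15 (AT3G52370) was at 8.85, 6.88 and 6.33 CPM in Col-0 and 3.24, 4.73 and 2.39 CPM in los2-5 (-1.07 ± 0.30). FLA16 (AT2G35860), known from stem strength, was at 31.9, 32.4 and 33.9 CPM in Col-0 and 22.9, 24.3 and 18.5 CPM in los2-5 (-0.58 ± 0.16). FLA17 (AT5G06390) was at 71.4, 84.3 and 80.95 CPM in Col-0 and 67.6, 40.6 and 50.4 CPM in los2-5 (-0.58 ± 0.16). The groups of these genes did not overlap, but each call was lost in leave-one-out fits. For FLA15 the adjusted p was 0.063 on leaving out either Col-0 replicate 1 or los2-5 replicate 3. For FLA16 it was 0.059 on leaving out Col-0 replicate 3 and 0.061 on leaving out los2-5 replicate 3, and for FLA17 it was 0.051, 0.054 and 0.073 on leaving out Col-0 replicate 2, Col-0 replicate 3 and los2-5 replicate 2 (edgeR). FLA18 (AT3G11700) was not called (-0.11 ± 0.16), and its value was above 0 under scaling by library size alone (0.015) and without los2-5 replicate 3 (0.047).

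FLA group C genes code for GPI-anchored proteins, here with a pair of fasciclin domains, and 3 of 4 fell. FLA8 (AT2G45470) was at 567, 518 and 467 CPM in Col-0 and 296, 282 and 302 CPM in los2-5. The los2-5 libraries lay close together, all below the wild type, and the log2 fold change was -0.82 ± 0.12. FLA2 (AT4G12730) was at 289, 271 and 209.6 CPM in Col-0 and 155, 118 and 126 CPM in los2-5 (-0.95 ± 0.14). FLA1 (AT5G55730), known from shoot regeneration in tissue culture, was at 89.7, 85.3 and 76.4 CPM in Col-0 and 53.1, 62.3 and 56.2 CPM in los2-5 (-0.55 ± 0.13). All of these calls held under each alternative. FLA10 (AT3G60900) was not called (-0.56 ± 0.23), although 10.6, 10.6 and 8.37 CPM in Col-0 and 5.83, 7.09 and 6.95 CPM in los2-5 did not overlap.

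**Figure D4:**
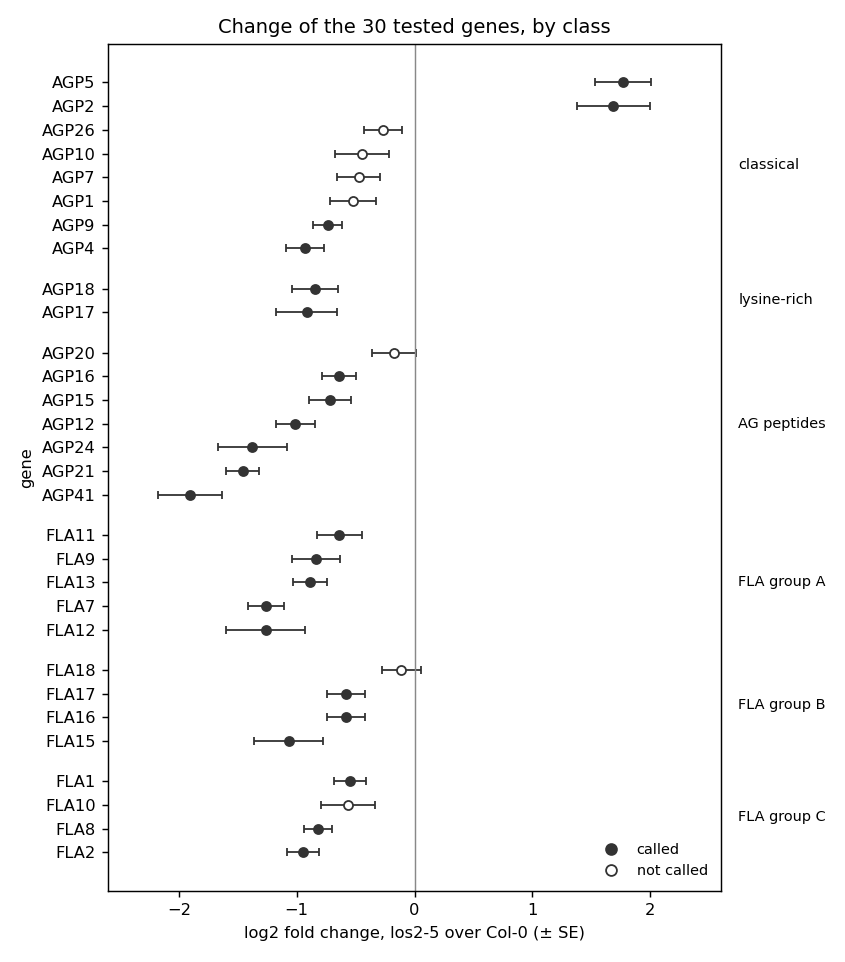
Log2 fold change of los2-5 over Col-0 with its SE (horizontal axis) for the 30 tested genes, ordered by class and value, filled where called in edgeR. AGP5 and AGP2 lie to the right of 0 at 1.77 and 1.69, and the other 28 lie to the left, down to -1.91 for AGP41.

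Near copies may limit the reading of single genes. AG peptide genes resemble each other, as do FLA11 and FLA12 and also FLA17 and FLA18. Reads that fit several copies may be split or dropped in ways the sources do not describe. How alike these genes are near the transcript end, where the tags lie, was not examined. Another gene overlaps 8 of the 36, in each case from the opposite strand. Of these 5 were called: AGP4, AGP16, AGP21, FLA11 and FLA16. Except for FLA11, the overlapping gene had from 0 to 77 counts over the 6 libraries, where AGP4 had 1152, AGP16 2345, AGP21 18163 and FLA16 694. Genes of the other lists overlap further genes too, among them GLCAT14E, PIGS, CESA1, KOR1 and ENODL8 from the opposite strand. The counts of those partners were not examined.

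A further 15 AGP and FLA genes were looked up that are not among the 36. Of these 3 were tested, 1 fell and 2 were not called, where 10.6% of all genes tested were called lower. FLA4 (AT3G46550), also called SOS5, acts in cell expansion and salt tolerance of roots together with the receptor kinases FEI1 and FEI2. It was at 19.5, 18.2 and 16.96 CPM in Col-0 and 12.5, 7.31 and 10.2 CPM in los2-5 (-0.86 ± 0.21), with no overlap. AGP25 (AT5G18690) was at -0.46 ± 0.24 and AGP31 (AT1G28290), a chimeric AGP, at -0.14 ± 0.13. The other 12 had from 0 to 17 counts over the 6 libraries, among them the pollen genes AGP6 (17) and AGP11 (0).

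Genes for enzymes that build the glycan and the anchor had few calls, to be read against the 9.92% of all genes tested that were higher and the 10.6% that were lower. Of 13 prolyl 4-hydroxylase genes, which make the hydroxyproline that carries the glycan, 9 had enough counts: 1 rose, 0 fell and 8 had no call, with a median log2 fold change of 0.07. P4H5 (AT2G17720), known from root hair growth, was at 17.4, 19.2 and 17.9 CPM in Col-0 and 30.01, 32.01 and 24.1 CPM in los2-5 (0.66 ± 0.17). Of 21 genes for arabinogalactan glycosyltransferases and methyltransferases 14 were tested, 2 rose, 0 fell and 12 had no call, with a median of -0.05. The higher calls of both lists are close to the 9.92% of all genes. At an unadjusted p under 0.05 these lists had 0 genes lower in edgeR, and DESeq2 and limma-voom also called 0 lower.

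FUT4 (AT2G15390), a fucosyltransferase that acts on AGPs, was at 1.77, 3.44 and 1.13 CPM in Col-0 and 14.2, 10.3 and 15.4 CPM in los2-5. Each los2-5 library was above each Col-0 library, with a log2 fold change of 2.64 ± 0.32. GLCAT14E (AT3G15350), of the family of AGP glucuronosyltransferases, was at 3.84, 2.70 and 1.81 CPM in Col-0 and 5.18, 7.52 and 4.56 CPM in los2-5 (1.08 ± 0.34). Its adjusted p was 0.067, 0.16 and 0.13 on leaving out Col-0 replicate 2, Col-0 replicate 3 and los2-5 replicate 2, and 0.097 in DESeq2. HPGT2, of the galactosyltransferases that start the glycan, was called higher under 5 of the 12 alternatives. Among 10 genes of GPI anchoring 9 were tested, 1 rose (against 9.92% of all genes), 0 fell and 8 had no call, with a median of -0.01 and 0 genes lower at an unadjusted p under 0.05 in edgeR or called lower in DESeq2 and limma-voom. PIGS (AT3G07180), annotated as a subunit of the GPI transamidase, was at 12.7, 13.5 and 15.8 CPM in Col-0 and 20.7, 21.3 and 27.6 CPM in los2-5 (0.72 ± 0.18).

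Genes of the early nodulin-like (ENODL) and xylogen families and of the primary wall had calls in the lower direction only, in the reported fit. Among all genes tested 10.6% were called lower and 9.92% higher. Some ENODL and xylogen genes code for chimeric AGPs. The 24 examined were taken by name and were not checked for an arabinogalactan region. Of these 24 genes 11 were tested, 5 fell, 0 rose and 6 were not called, with a median of -0.47. ENODL2 (AT4G27520) went from 789.7, 697 and 686 CPM in Col-0 to 522, 546 and 503 CPM in los2-5 (-0.47 ± 0.11), and the groups did not overlap. ENODL19 (AT4G12880) went from 77.3, 71.5 and 61.7 CPM to 49.00, 32.9 and 38.2 CPM (-0.81 ± 0.16). The log2 fold change of ENODL8 was -1.07 ± 0.26 and that of ENODL15 -1.03 ± 0.25, the latter with an adjusted p of 0.058 on leaving out Col-0 replicate 1 and 0.060 on leaving out los2-5 replicate 2 (edgeR). ENODL17, the fifth gene called, was at -0.59 ± 0.17 and had no call under 4 of the 12 alternatives, with adjusted p = 0.061 for library size alone and from 0.069 to 0.077 in 3 leave-one-out fits (edgeR). Leaving out Col-0 replicate 1 left 3 genes of the list called lower. In this list 0 genes were higher at an unadjusted p under 0.05 in edgeR, and DESeq2 and limma-voom called 0 higher. Without los2-5 replicate 2 ENODL1 was called higher (adjusted p = 0.0098, edgeR).

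All 8 primary wall genes were tested, 6 fell (against 10.6% of all genes tested), 0 rose and 2 (FEI1 and FEI2) were not called, with a median of -0.48. COB (AT5G60920), a GPI-anchored protein that orients cell expansion, was at 125, 102 and 116 CPM in Col-0 and 73.2, 49.8 and 37.3 CPM in los2-5 (-1.10 ± 0.19). The cellulose synthase gene CESA1 (AT4G32410) was at -0.79 ± 0.17, POM1 (AT1G05850), a chitinase-like gene of cellulose synthesis, at -0.52 ± 0.13, and KOR1 (AT5G49720), an endoglucanase gene, at -0.50 ± 0.12. CESA3 and CESA6 had no call under library size alone (adjusted p = 0.11 and 0.085, edgeR), which left 4 of the 8. CESA3 also had no call without Col-0 replicate 1 or 3, or los2-5 replicate 2 or 3 (adjusted p from 0.052 to 0.12, edgeR). CESA6 had none without Col-0 replicate 2 (adjusted p = 0.098) or los2-5 replicate 3 (adjusted p = 0.094, edgeR). The genotypes did not overlap for any of the 8, where 37.2% of all genes tested did not overlap. FEI1 and FEI2 were at -0.41 ± 0.16 and -0.32 ± 0.22. In edgeR 0 of the 8 were higher at an unadjusted p under 0.05, and DESeq2 and limma-voom called 0 higher.

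**Figure D5:**
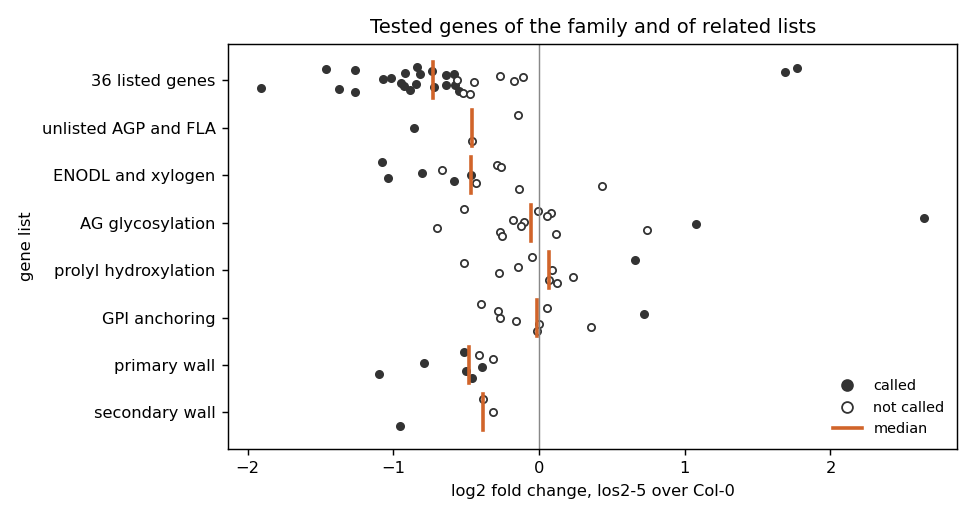
Log2 fold change of los2-5 over Col-0 (horizontal axis) of each tested gene in the family and in 7 related lists, filled where called in edgeR, with a line at the median of each list. The medians of the 36 listed genes, the ENODL and xylogen genes and the primary wall genes are -0.73, -0.47 and -0.48, while those of the modifying enzymes lie between -0.05 and 0.07.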

How the data were processed

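Raw counts of reads per gene from 3' RNA-seq, 1 deposited table for 6 libraries, were used as the authors deposited them. Per the submitters' processing notes, STAR, edgeR and the build TAIR10 were used. No source used here gives versions, the counting tool, the annotation or whether counting used strand. All 37051 identifiers were found in RefSeq's annotation of TAIR10.1, which served for names, coding lengths and overlaps. Its build name differs, so no coordinates or sequences are printed. The members and lists were chosen with earlier results of these data known.

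Genes that passed filterByExpr (minimum count 10, total 15) were scaled by TMM. The 13952 genes kept were tested between genotypes by quasi-likelihood (edgeR 4.0.16, R 4.3.3, robust fit), with p-values adjusted by Benjamini-Hochberg. Of the called genes named here, AGP2, FUT4 and GLCAT14E passed the filter only through los2-5, where they were higher. AGP24, FLA12 and CESA4 passed it only through Col-0, where they were higher. Each of these genes was also called with no filter on low counts. Each SE equals the size of the log2 fold change over the root of F. Spread is the SD of 3 libraries, and p-values measure the spread between pools of plants from different pots. Intervals cover counting error alone. By the naming rule, called members and the member with the highest mean CPM of a class have a value per library, other members a range, fold change or count, and other lists up to 4 called genes with the smallest p. AGP7, FLA10, AGP25, AGP31, FEI1, FEI2, HPGT2, ENODL1, ENODL17, LAC4, AGP6, AGP11 and the markers were described beyond it after their values were seen. The same holds for CESA3, CESA6, FRA8, COBL4, IRX10, CESA7, LAC17 and IRX9.

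In simulated counts for the 13952 genes, 66 genes were changed 4-fold, 67 were changed 2-fold and 67 were changed 1.5-fold. Of these changes 90.9%, 73.1% and 31.3% were recovered, with 4 false of 134 calls. The real libraries gave 2861 calls, so the adjusted threshold fell at another unadjusted p. The recovered shares therefore do not carry over to the real genes. Alternatives were DESeq2 1.42.0, limma-voom (limma 3.58.1), library size alone, size factors of DESeq2, no filter, a replicate block and leaving out each library.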

Additional observations from a re-analysis of the deposited data

How the results depend on the processing

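Over the 12 alternatives the listed genes called lower numbered 16 to 24 (21 as reported) and those called higher 2 in each, and the median log2 fold change of the 30 tested genes ran from -0.83 to -0.61. Of 360 values of single members under the alternatives, 331 kept their direction and their side of the threshold, 20 lost the call, 7 gained one and 2 changed sign. Both sign changes were those of FLA18, at 0.015 with library size alone and from -0.22 to 0.047 when 1 library was left out (0.047 without los2-5 replicate 3). Over all genes, 2861 were called, 1384 higher and 1477 lower. With library size alone 2179 were higher and 989 lower (68.8% higher against 48.4%), a scaling that shifted fold changes by a median of 0.12, and relative to all genes the median of the members was then -0.75, as in the reported fit (-0.75). Leaving out 1 library gave 1758 to 3143 calls over all genes, 831 to 1537 higher and 927 to 1606 lower, and the lowest of each was without Col-0 replicate 3. The cause was not tested.

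Over all genes tested, the deviations of same-numbered libraries correlated at 0.051, -0.00068 and -0.048, and 1 of the numbers correlated best with itself. These values gave no sign that replicate numbers pair the libraries, but they cannot exclude a pairing. With the replicate block 23 members were lower and 2 higher, of 3115 calls over all genes, and AGP1 and AGP7 gained a call (adjusted p = 0.035 and 0.018, edgeR). No library was a copy of another of its genotype (chi-square per gene from 3.14 to 8.17). At the present depth of 3563033 to 4598645 counts, 6 members with at most 41 counts in all did not pass the filter. Of these AGP22 was called lower with no filter, AGP3, AGP13, AGP14 and AGP19 were not, and FLA6 had 0 counts. In simulated data 31.3% of 1.5-fold changes were recovered, with far fewer genes changed than were called here, so the share does not carry over to the members.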
